A study of Solanum tuberosum with 6 samples.

Results

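The count table of this potato leaf study lists 114281 genes, of which 24264 carry an identifier made of a tag and a running number instead of a gene model of the cultivar Atlantic. The 179 genes described here are the well expressed ones among those 24264. They were chosen on their level: a mean of at least 20 CPM over all 18 libraries, and at least 1 count in every library. CPM is the usual depth-scaled count, that is the count of a gene relative to the total count of its library, and is not corrected for gene length, so levels are compared here between libraries and not between genes. The rule used the levels, so the mean levels are a description. It did not use the cold contrast or the contrasts between cultivars, although a gene could reach the mean level through a single group or cultivar, and such a gene was favoured to differ there. Just inside the limit were 3 genes with mean levels of 20.02, 20.23 and 20.26 CPM. Just outside it were 3 genes with 19.72, 19.90 and 19.98 CPM.

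Transcribed regions that fall outside the gene models of a reference are commonly given a running number when reads are assembled. Such a region can be a protein-coding gene that the annotation missed, a long noncoding RNA, an untranslated end of a neighbouring gene, or a gene copy that the reference cultivar lacks. Cultivated potato is a highly heterozygous crop, and its cultivars differ widely in gene content. Potato leaves are easily injured by frost, and their cold response runs in part through the CBF transcription factors, which switch on a large set of genes within hours. How the regions were defined is not given in the sources used here, and the sources pair none of the identifiers with a sequence, a position or a gene name. No function can therefore be stated for any of the 179 genes. In the text a gene is referred to by its level or its change, and the identifiers as deposited stand above the panels of the plots of single genes.

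The leaves were those of plants raised in vitro free of virus, which had spent 18 days on MS medium. There were 6 groups: Atlantic kept for 12 h at −4°C (CS-Atlantic) and at 25°C (Atlantic), KY130 in the same conditions (CS-KY130 and KY130), and KY140 likewise (CS-KY140 and KY140). All are labelled wild type. The treatment field of the labels gives 12C and their titles give −4°C, and the temperature of the titles is used. Atlantic was described by the study as cold-resistant and KY140 as cold-sensitive, whereas KY130 is present in the table and was not described there. Each group is 1 record with 3 numbered libraries in the table, which the methods call biological replicates for Atlantic and KY140. Where the libraries of a group came from plants exposed together, the p-values measure only the spread between these libraries. The leaf label could not be checked against marker genes, because the table holds no gene names.

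Library totals ranged from 11047494 to 14971945 counts. Some libraries stood apart in the correlation of log2(CPM + 1) over genes with a mean of at least 1 CPM. CS-KY130-3 correlated with the KY130 libraries at 0.869 to 0.891, and with the other CS-KY130 libraries at 0.831 to 0.872. KY140-2 correlated with the CS-KY140 libraries at 0.859 to 0.907, and with the other KY140 libraries at 0.812 to 0.890. KY140-1 had the fewest detected genes, 45305, and correlated with its own group at 0.796 to 0.812.

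The 179 genes took a small part of each library, and their levels depended on the cultivar. Their summed level was 13704 ± 951 CPM in CS-Atlantic and 11072 ± 1142 CPM in Atlantic (SD, n = 3 each, here and below). It was 17632 ± 2745 CPM in CS-KY130 and 13672 ± 1985 CPM in KY130. In KY140 the order was the other way, with 11961 ± 264 CPM in CS-KY140 and 13236 ± 2185 CPM in KY140. The libraries of CS-KY130 ran from 14475 to 19459 CPM and those of KY130 from 11878 to 15805 CPM, so these ranges overlapped, as did those of CS-KY140 (11733 to 12250.2 CPM) and KY140 (10957 to 15312 CPM). The Atlantic ranges did not overlap, at 12898 to 14753 CPM in CS-Atlantic and 9923 to 12206 CPM in Atlantic. A large part of this difference was 1 gene, the one with the highest mean level. It averaged 2154 CPM in CS-Atlantic and 593 CPM in Atlantic, so the sums do not describe a shift of all 179 genes. The highest summed level in KY140 belonged to KY140-1, the library with the fewest detected genes. In leaf RNA, fewer cells of a type and less RNA per cell cannot be told apart.

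The level of the median gene was 36.2 CPM in CS-Atlantic and 39.4 CPM in Atlantic, 47.3 CPM in CS-KY130 and 43.9 CPM in KY130, and 32.9 CPM in CS-KY140 and 42.4 CPM in KY140. The spread between libraries of a group was smallest in Atlantic. The median coefficient of variation of the 179 genes was 19.8% in CS-Atlantic, 19.7% in Atlantic, 33.7% in CS-KY130, 25.9% in KY130, 35.0% in CS-KY140 and 39.8% in KY140. All identifiers with the tag together took 4.32 to 4.72% of the counts in CS-Atlantic, 4.81 to 5.56% in Atlantic, 4.10 to 5.26% in CS-KY130 and 4.69 to 5.15% in KY130. In KY140 the ranges were 2.51 to 3.03% after cold (CS-KY140) and 2.79 to 3.68% without it, below every library of Atlantic and KY130.

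**Figure D1:**
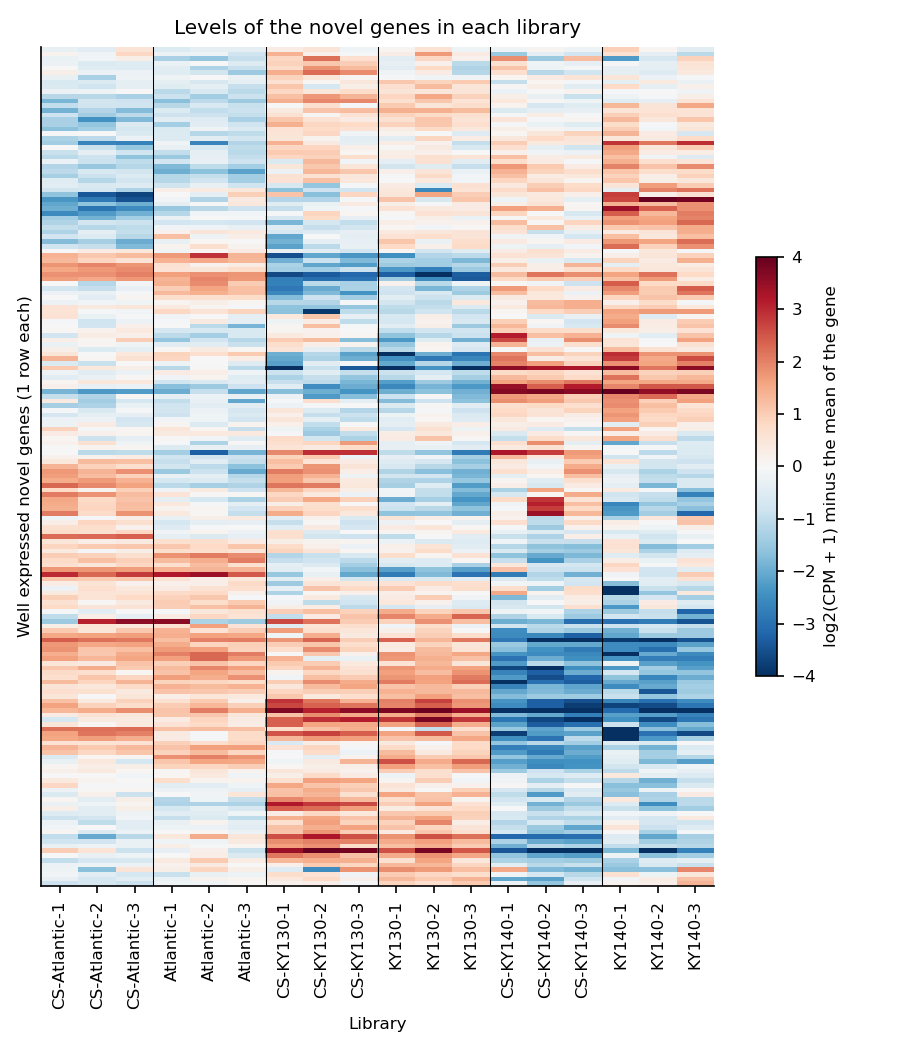
Level of each of the 179 genes (rows, ordered by the likeness of their profiles) in each of the 18 libraries (columns), as log2(CPM + 1) minus the mean of the gene over all libraries; colours are capped at −4 and 4. Blocks of genes are low in the 6 libraries of 1 cultivar, most often KY140, and fewer rows change colour between the CS and 25°C libraries of a cultivar.

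The first comparison asked which of these genes changed after cold. Counts were tested with the quasi-likelihood test of edgeR in each cultivar, and a gene was called where the absolute log2 fold change (log2FC) was at least 1 and the Benjamini-Hochberg false discovery rate (FDR) over all genes tested was under 0.05. After cold, 44 of the 179 genes were called in at least 1 cultivar, 27 of them higher and 17 lower, and 0 were called in opposite directions. Of all 70168 genes tested in at least 1 cultivar, 7.14% were called in at least 1, 5.16% higher and 1.99% lower, and 0.00285% in opposite directions. The other 135 of the 179 were called in no cultivar. A total of 34 genes were called in exactly 1 cultivar (against 6.41% of all), 9 in exactly 2 (against 0.56%), and 1 in all 3 (against 0.164%). An untested cultivar counts as not called here. All 3 cultivars were tested for 175 of the 179 genes and for 31669 of the 70168. The shares over all genes thus include more genes that could not be called in 2 or 3 cultivars.

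In Atlantic, 178 of the genes were tested. Of these, 24 (13.5%) were higher after cold, against 5.79% of all genes tested, and 16 (8.99%) were lower, against 2.31%. Annotated genes that meet the same level rule had shares of 9.86% higher and 4.48% lower. The median log2FC was 0.05 over the 178 genes and −0.07 over all genes tested, so the calls stood on both sides of an unshifted middle. At an unadjusted p under 0.05 there were 75 genes, against 21.5% of all genes tested. Of the 24 higher genes, 5 had a mean under 20 CPM over the 9 libraries at 25°C, and of the 16 lower genes, 6 had one over the 9 cold libraries, so they met the level rule through the libraries in which they were high. The joint fit of all 18 libraries called 7 higher (against 1.01%) and 7 lower (against 0.292%). With 1 library left out at a time, 20 to 24 were called higher and 10 to 14 lower, the fewest lower calls being without Atlantic-3 or CS-Atlantic-3 (10 each). Over all genes, 3347 were called higher and 1332 lower with every library. With 1 library left out these counts were 1974 to 2670 and 638 to 779.

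The gene with the largest rise in Atlantic had 301, 233 and 189 CPM in CS-Atlantic, against 28.4, 23.9 and 26.1 CPM in Atlantic. Every CS-Atlantic library lay above every Atlantic library, with a log2FC of 3.32 ± 0.23 (SE, edgeR FDR = 7.4e-05). A gene near it in running number, also among the 5 with the largest rises and one of the 10 genes with the highest mean level, had 584, 688 and 545 CPM in CS-Atlantic, against 127, 142 and 107 CPM in Atlantic (log2FC 2.39 ± 0.18, edgeR FDR = 8.77e-05). The 2 genes followed each other over the 18 libraries, with r = 0.956 on log2(CPM + 1), a description over libraries that share groups. Both calls held in all 6 fits that left out 1 library.

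A second pair of neighbouring numbers rose as well. Its member with the larger change, the second largest rise in Atlantic, had 315, 246 and 341 CPM in CS-Atlantic, against 33.5, 51.2 and 22.5 CPM in Atlantic (log2FC 3.20 ± 0.30, edgeR FDR = 0.000244). Its neighbour in number, which had the fifth largest rise, had 519.7, 379 and 316 CPM in CS-Atlantic, against 120.3, 95.4 and 64.0 CPM in Atlantic (log2FC 2.24 ± 0.28, edgeR FDR = 0.00104). The groups did not overlap for either gene, and their profiles correlated at 0.957 over the 18 libraries. Without any 1 library both calls held in Atlantic.

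The third by rise in Atlantic was a gene with 72.8, 74.9 and 81.1 CPM in CS-Atlantic, against 10.8, 9.47 and 11.5 CPM in Atlantic. The CS libraries lay within a narrow band far above the untreated ones (log2FC 2.96 ± 0.21, edgeR FDR = 7.95e-05), and the call held in all 6 fits with 1 library left out. In KY130 this gene had 23.4, 8.42 and 7.81 CPM in CS-KY130, against 6.74, 14.96 and 10.4 CPM in KY130. In KY140 it had 7.49, 5.68 and 17.6 CPM in CS-KY140, against 12.0, 8.03 and 11.7 CPM in KY140. The groups overlapped in both of these cultivars, where the log2FC was 0.41 ± 0.60 (edgeR FDR = 0.909) and 0.05 ± 0.60 (edgeR FDR = 0.992). The difference between its cold responses in Atlantic and KY140 was 2.90 on the log2 scale, which did not pass the interaction test of edgeR (FDR = 0.137). DESeq2 passed it, with 2.97 (FDR = 0.00108), and passed Atlantic minus KY130 with 2.52 (FDR = 0.0179), where edgeR gave 2.48 (FDR = 0.193). This gene met the level rule through CS-Atlantic alone, so the choice of genes favoured its rise and these differences.

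The gene with the highest mean level had 2774, 2029 and 1660.4 CPM in CS-Atlantic, against 716, 665 and 397 CPM in Atlantic. All CS-Atlantic libraries exceeded all Atlantic libraries, and the log2FC was 1.99 ± 0.26 (edgeR FDR = 0.00152). In KY130 it had 2794, 2283 and 754 CPM in CS-KY130, against 519.6, 515 and 242 CPM in KY130, with the lowest CS value in CS-KY130-3 (log2FC 2.31 ± 0.50, edgeR FDR = 0.0803). Without CS-KY130-3 the log2FC was 2.67 and the gene passed (edgeR FDR = 0.03). In KY140 it had 683, 912 and 1997 CPM in CS-KY140, against 699, 429 and 394 CPM in KY140, which overlapped (log2FC 1.33 ± 0.43, edgeR FDR = 0.242).

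Among the 16 genes that fell in Atlantic, the one with the lowest log2FC had 17.0, 4.30 and 3.30 CPM in CS-Atlantic, against 55.4, 40.8 and 106 CPM in Atlantic, without overlap (log2FC −2.92 ± 0.63, edgeR FDR = 0.0201). The call was lost without CS-Atlantic-2, CS-Atlantic-3 or Atlantic-3, where the FDR reached 0.0941, although the log2FC stayed between −4.02 and −2.41 with any 1 library left out. Next by fall was a gene with 6.08, 4.04 and 2.17 CPM in CS-Atlantic, against 32.0, 14.4 and 45.1 CPM in Atlantic (log2FC −2.78 ± 0.51, edgeR FDR = 0.00937). It lost the call without CS-Atlantic-2 (FDR = 0.056). This gene met the level rule through its libraries without cold, so the choice of genes favoured its fall.

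The third by fall in Atlantic was a gene with 18.5, 8.52 and 16.6 CPM in CS-Atlantic, against 50.6, 108 and 52.8 CPM in Atlantic (log2FC −2.15 ± 0.38, edgeR FDR = 0.00746). It was followed by a gene with 4.98, 7.20 and 5.47 CPM in CS-Atlantic, against 18.4, 23.8 and 33.4 CPM in Atlantic (log2FC −1.99 ± 0.33, edgeR FDR = 0.00556). Last of the 5 largest falls was that of a gene with 41.8, 66.4 and 68.0 CPM in CS-Atlantic, against 223, 259 and 221 CPM in Atlantic (log2FC −1.88 ± 0.22, edgeR FDR = 0.000705). For each of these 3 genes the groups did not overlap, and the call held in all 6 fits with 1 library left out. The second of them met the level rule through its libraries without cold, so the choice of genes favoured its fall.

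In KY130, 177 of the genes were tested, of which 10 (5.65%) were higher after cold, against 0.844% of all genes tested. None was lower by edgeR (0 of 177, against 0.0842%), and 63 genes in either direction had an unadjusted p under 0.05, against 10.8% of all genes. DESeq2 called 22 higher (against 2.12%) and 3 lower (against 0.591%). Of the 10 higher genes, 3 had a mean under 20 CPM over the 9 libraries at 25°C. Annotated genes under the same level rule had 2.00% higher and 0.230% lower. The median log2FC was 0.20 over the 177 genes, against −0.07 over all genes tested, and it ran between 0.06 without KY130-3 and 0.42 without KY130-2. The number of higher calls rested on single libraries: it was 1 without CS-KY130-2, 2 without KY130-1 or KY130-3, 6 without KY130-2, 7 without CS-KY130-1 and 10 without CS-KY130-3, the library that stood near the untreated ones. Over all genes the higher calls also changed, from 411 with every library. Their number was 132 without CS-KY130-2, 128 without KY130-1, 124 without KY130-3, 351 without KY130-2, 311 without CS-KY130-1 and 327 without CS-KY130-3.

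In KY130 the gene with the largest rise had 52.9, 108 and 107 CPM in CS-KY130, against 6.02, 3.76 and 1.00 CPM in KY130. It reached the level limit through CS-KY130 and CS-KY140, the groups in which it was high, so the choice of genes favoured this difference. The groups were far apart (log2FC 4.75 ± 0.63, edgeR FDR = 0.0112). The call was lost without CS-KY130-2 or KY130-2 (FDR up to 0.0614), while the log2FC ran from 4.28 to 5.29 with any 1 library left out. The third by rise in KY130 was a gene with 215, 309.7 and 206 CPM in CS-KY130, against 25.5, 41.5 and 19.6 CPM in KY130 (log2FC 3.18 ± 0.37, edgeR FDR = 0.00585). It is the only one of the 5 genes with the largest rises in KY130 whose call held in all 6 fits with 1 library left out.

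Of the 4 genes in the pairs of near numbers that rose in Atlantic, 3 rose in KY130 too. Second by rise in both Atlantic and KY130, the first of them had 401, 334 and 113 CPM in CS-KY130, against 40.5, 29.0 and 24.3 CPM in KY130 (log2FC 3.31 ± 0.47, edgeR FDR = 0.0155), and its neighbour in number had 419, 691 and 288 CPM in CS-KY130, against 129, 92.8 and 78.8 CPM in KY130 (log2FC 2.35 ± 0.36, edgeR FDR = 0.0211). In the other pair, the gene with the higher mean level had 654, 443 and 275 CPM in CS-KY130, against 89.5, 88.2 and 72.8 CPM in KY130 (log2FC 2.58 ± 0.34, edgeR FDR = 0.0106). Its partner, which had the largest rise in Atlantic, missed the threshold in KY130, with 271, 262 and 82.8 CPM in CS-KY130, against 23.6, 43.5 and 12.3 CPM in KY130 (log2FC 3.06 ± 0.59, edgeR FDR = 0.0549). In all 4 genes the groups did not overlap and CS-KY130-3 held the lowest CS value. The call of the gene that was second in both cultivars was lost without CS-KY130-2, KY130-1, KY130-2 or KY130-3 (FDR up to 0.0924), and that of the gene with 654 CPM in CS-KY130-1 without CS-KY130-2, KY130-1 or KY130-3 (FDR up to 0.071).

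Second by mean level was a gene that was called in KY130 and in no other cultivar. It had 593, 888 and 588 CPM in CS-KY130, against 253, 303 and 223 CPM in KY130, which did not overlap (log2FC 1.53 ± 0.26, edgeR FDR = 0.0349). Without CS-KY130-3 the log2FC was 1.61 and the FDR 0.0551. It had 186, 147 and 190.4 CPM in CS-Atlantic, against 123, 208 and 164 CPM in Atlantic. In KY140 it had 1392, 870.4 and 532 CPM after cold, against 1667, 929 and 1554 CPM at 25°C. Both of those pairs of groups overlapped.

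In KY140, 177 of the genes were tested and 5 were called: 2 (1.13%) higher, against 0.886% of all genes tested, and 3 (1.69%) lower, against 0.158%. Annotated genes under the same level rule had 2.03% higher and 0.494% lower. The median log2FC was −0.28 over the 177 genes, against 0.07 over all genes tested, and it was −0.09 without KY140-1. At an unadjusted p under 0.05 there were 47 genes, against 10.7% of all genes. The counts depended on the test: DESeq2 called 8 higher (against 2.48%) and 11 lower (against 0.551%), the joint fit also 8 (against 1.81%) and 11 (against 0.27%), and the fit without a filter 14 (against 2.24%) and 15 (against 0.5%). Both higher genes had a mean under 20 CPM over the 9 libraries at 25°C, and 2 of the 3 lower genes had one over the 9 cold libraries. Leaving out 1 library gave 0 to 3 higher and 0 to 2 lower calls: 0 and 0 without CS-KY140-1, 3 and 1 without CS-KY140-2, 1 and 1 without CS-KY140-3, 1 and 2 without KY140-1, and 0 and 1 without KY140-2 or KY140-3. Over all genes the calls were 425 higher and 76 lower with every library, and 94 and 13 without CS-KY140-1. They were 354 and 35 without CS-KY140-2, and 176 and 28 without CS-KY140-3. Without KY140-1, KY140-2 and KY140-3 in turn they were 590 and 97, 176 and 27, and 124 and 17.

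Of the 2 genes that rose in KY140, the one with the larger log2FC is the gene called in all 3 cultivars. It had 21.2, 195 and 45.4 CPM in CS-KY140, against 2.81, 5.98 and 1.10 CPM in KY140 (log2FC 4.83 ± 0.93, edgeR FDR = 0.0498). The groups did not overlap, but the call was lost in all 6 fits with 1 library left out (FDR 0.0629 to 0.184). The other one, which had the largest rise in KY130, had 133, 95.7 and 44.9 CPM in CS-KY140, against 13.1, 5.81 and 8.69 CPM in KY140 (log2FC 3.40 ± 0.50, edgeR FDR = 0.0157), and it lost the call without CS-KY140-1, KY140-2 or KY140-3 (FDR up to 0.101).

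Of the 3 genes that fell in KY140, the one with the largest fall also had the second largest fall in Atlantic. It had 30.2, 46.9 and 26.9 CPM in CS-KY140, against 225, 571 and 502 CPM in KY140, with no overlap (log2FC −3.53 ± 0.41, edgeR FDR = 0.0064). The call was lost without CS-KY140-1 (FDR = 0.0532) and held without KY140-2. Second by fall in KY140 was a gene with 26.6, 17.2 and 18.3 CPM in CS-KY140, against 103, 61.1 and 107 CPM in KY140 (log2FC −2.03 ± 0.35, edgeR FDR = 0.032), and it kept the call only without KY140-1, the FDR reaching 0.154 in the other 5 fits. Both genes met the level rule through their libraries without cold, so the choice of genes favoured these falls.

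The third by fall in KY140 was a gene with 40.2, 52.3 and 31.4 CPM in CS-KY140, against 122, 116 and 156 CPM in KY140 (log2FC −1.57 ± 0.30, edgeR FDR = 0.0495). No CS-KY140 library reached a KY140 library, yet the FDR ran from 0.0519 to 0.215 with 1 library left out. The gene also fell in Atlantic, with 13.9, 9.66 and 14.6 CPM in CS-Atlantic, against 30.9, 38.3 and 36.4 CPM in Atlantic (log2FC −1.35 ± 0.26, edgeR FDR = 0.0114). With the gene of the largest fall in KY140 it makes up the 2 genes called lower in both Atlantic and KY140, against 0.057% of all genes. That share counts an untested cultivar as not called.

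**Figure D2:**
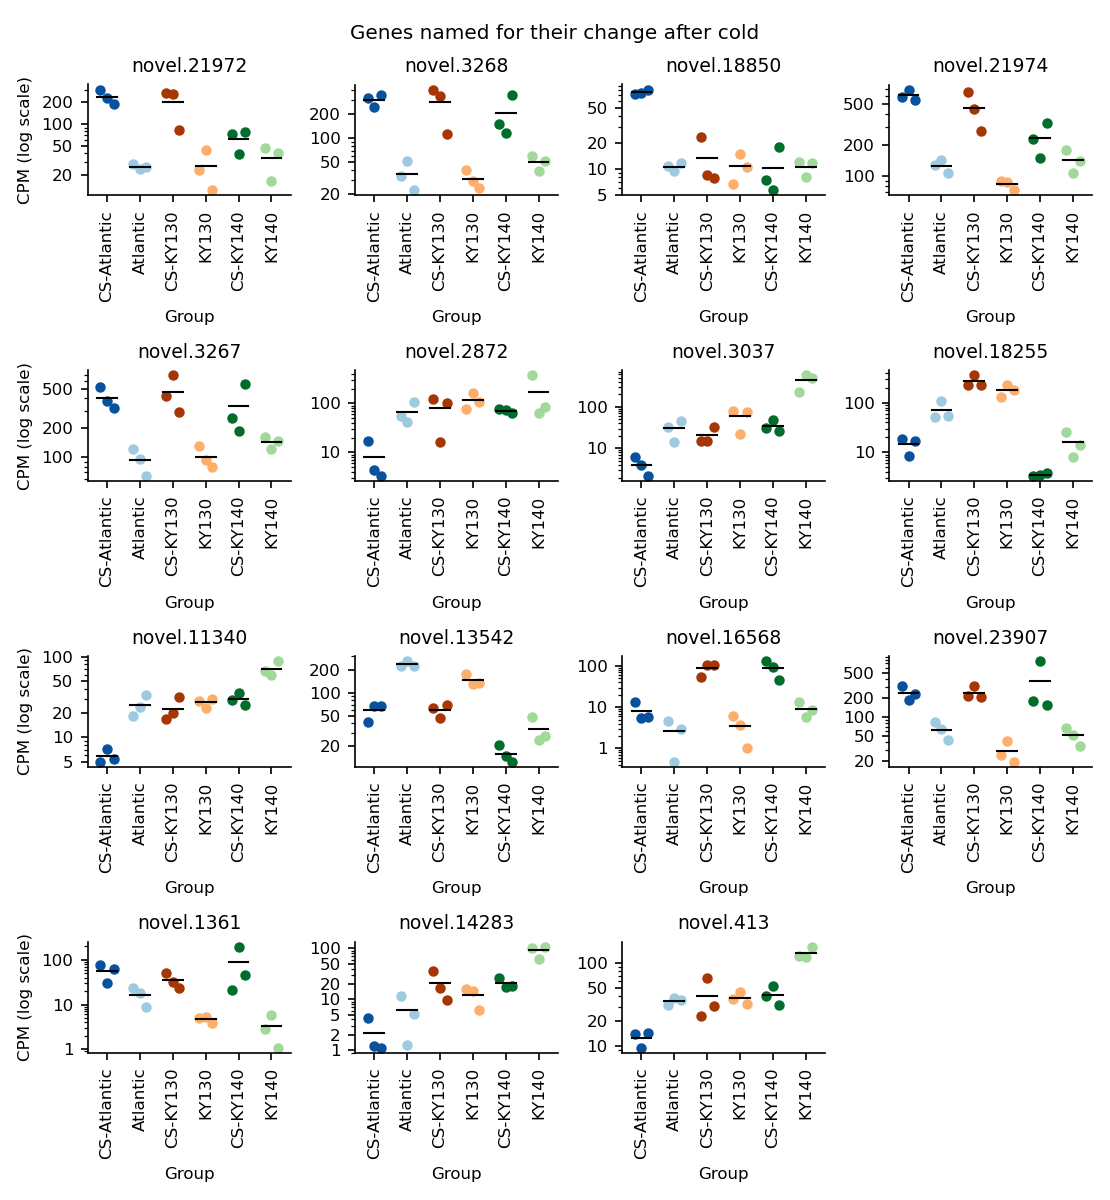
Level in CPM (log scale) of the 15 genes with the largest called log2FC after cold, 1 panel for each gene under its deposited identifier, in each of the 3 libraries of a group (points, libraries 1 to 3 from left to right) with the group mean (bar), cold-stressed groups in dark and 25°C groups in light colours. The first panels hold the 5 genes with the largest rises in Atlantic and then the 5 with the largest falls, largest first, and the gene with the second largest fall has 2.17 to 6.08 CPM in CS-Atlantic and 14.4 to 45.1 CPM in Atlantic.

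The gene called in all 3 cultivars met the level rule through its cold libraries, so the choice of genes favoured its rise. It had 77.6, 30.0 and 63.1 CPM in CS-Atlantic, against 23.1, 18.2 and 8.60 CPM in Atlantic (log2FC 1.90 ± 0.43, edgeR FDR = 0.0234). It had 51.0, 32.7 and 23.7 CPM in CS-KY130, against 5.03, 5.20 and 3.84 CPM in KY130 (log2FC 3.05 ± 0.43, edgeR FDR = 0.0149). In each cultivar the 3 CS libraries lay above the 3 untreated ones. With 1 library left out the call was lost in Atlantic without CS-Atlantic-1, CS-Atlantic-3, Atlantic-2 or Atlantic-3 (FDR up to 0.0965), and in KY130 without CS-KY130-2, KY130-1 or KY130-3 (FDR up to 0.0918).

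The calls of the cultivars were set side by side as counts. The genes called higher in both Atlantic and KY130 numbered 7 (against 0.395% of all 70168 genes), and 17 were called higher in Atlantic alone (against 4.15%) and 14 lower in Atlantic alone (against 1.83%). These shares of the 70168 genes again count an untested cultivar as not called. Of the 24 genes called higher in Atlantic, 22 had a positive log2FC in KY130 (median 1.44, with 13 whose libraries did not overlap in that direction) and 22 in KY140 (median 1.02, 9 without overlap). Of the 16 called lower in Atlantic, 12 had a negative log2FC in KY130 (median −0.88, 7 without overlap) and all 16 in KY140 (median −1.32, 9 without overlap). Of all genes called higher in Atlantic, 87.8% had a positive log2FC in KY130 (44% without overlap) and 90.5% in KY140 (48.3% without overlap). Of all those called lower, 79.7% had a negative log2FC in KY130 (34% without overlap) and 77.1% in KY140 (33.7% without overlap). With so few genes in each count, nothing particular to the 179 genes is read from these shares.

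Over the genes tested in both cultivars, the log2FC values correlated at 0.703 between Atlantic and KY130 (177 genes), at 0.640 between Atlantic and KY140 (176 genes) and at 0.596 between KY130 and KY140 (175 genes). These are descriptions across genes, which are not independent, and each pair of cultivars shares no library. The sign was the same for 114, 118 and 106 genes in that order of pairs.

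**Figure D3:**
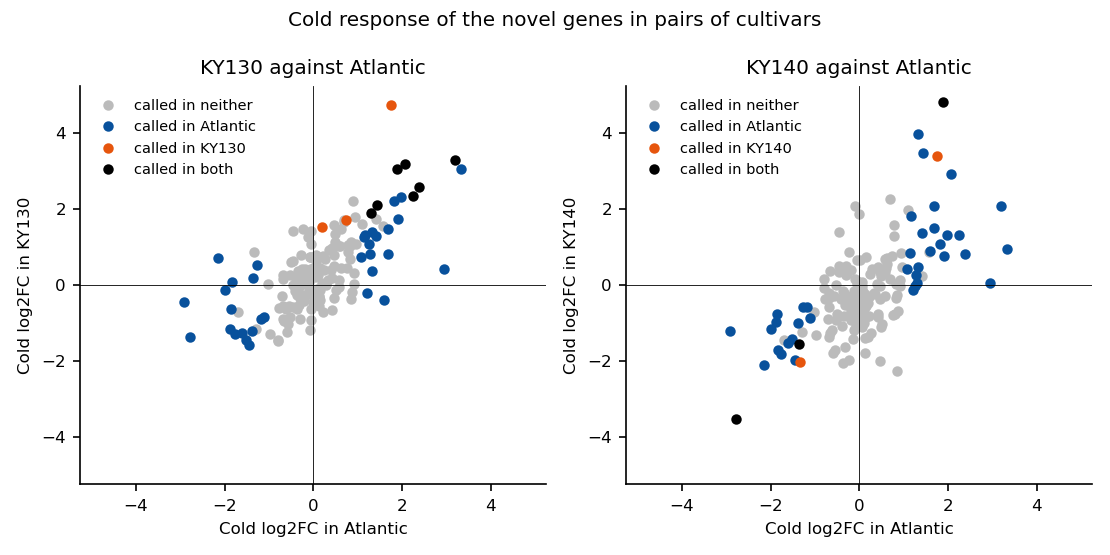
Cold log2FC (CS over 25°C) of each gene in KY130 (left) and in KY140 (right) on the vertical axis, against that in Atlantic on the horizontal axis; colours give the cultivar in which the gene was called. The correlation is 0.703 over 177 genes on the left and 0.640 over 176 genes on the right, and no gene was called in opposite directions.

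The spread between libraries differs among cultivars, so the groups were also compared by whether all 3 CS libraries lay above or below all 3 libraries at 25°C. In Atlantic this held for 40 genes above (22.5%, against 13.4% of all genes tested) and 49 below (27.5%, against 18.2%). In KY130 it held for 36 above (20.3%, against 8.57%) and 31 below (17.5%, against 12.9%). In KY140 it held for 16 above (9.04%, against 11.7%) and 40 below (22.6%, against 9.68%). The share above in KY140 was near that of all genes, and the others exceeded it. These shares, and those over all 3 cultivars below, were not set against annotated genes under the same level rule. Whether the excess goes with the level of the genes was not tested.

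Of 175 genes tested in all 3 cultivars, 10 (5.71%) lay above in every cultivar, against 2.76% of all genes tested in all 3, and 13 (7.43%) lay below, against 1.26%. The 10 included the gene called in all 3 cultivars, the genes with the largest and the third largest rise in KY130, and the pair of neighbouring numbers that rose in both Atlantic and KY130. The 13 included the gene with the fifth largest fall in Atlantic. A small but even example among the 10, chosen after its values were seen, had 159.6, 173 and 201 CPM in CS-Atlantic, against 95.9, 98.0 and 101 CPM in Atlantic (log2FC 0.97, under the limit of 1). It had 168, 174 and 155 CPM in CS-KY130, against 77.6, 90.0 and 88.6 CPM in KY130, and 303, 256 and 255 CPM in CS-KY140, against 209, 187 and 229.7 CPM in KY140.

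**Figure D4:**
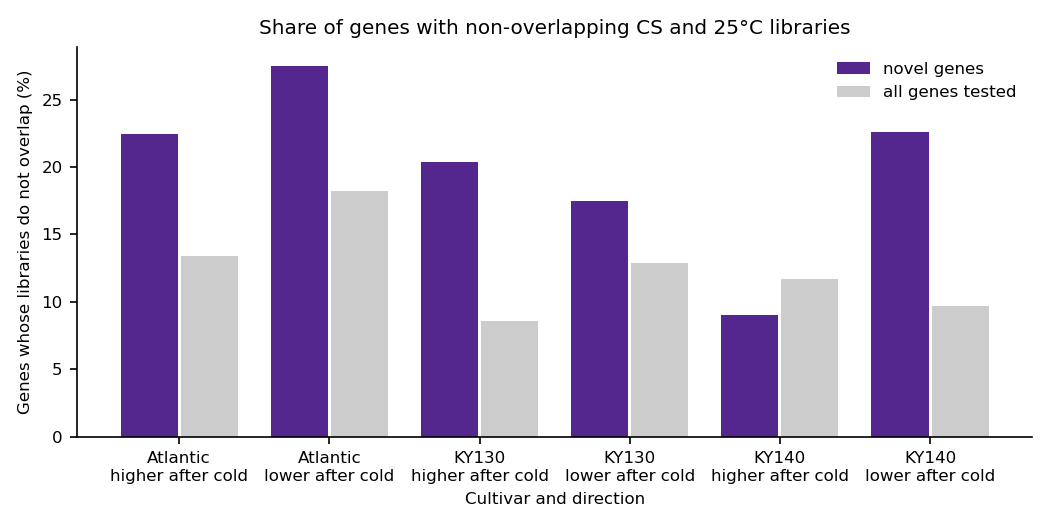
Share of the 179 genes (dark bars) and of all genes tested (light bars), in percent, whose 3 CS libraries all lie above (higher) or all below (lower) the 3 libraries at 25°C, by cultivar. The dark bar is the taller one in every case except genes higher in KY140, at 9.04% against 11.7%.

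Whether the cold response differed between cultivars was tested as an interaction in a fit of the 12 libraries of each pair. By edgeR 0 of the 179 genes passed an FDR of 0.05 for Atlantic minus KY140 (against 0.0103% of all genes tested), 0 for Atlantic minus KY130 (against 0.0415%) and 0 for KY130 minus KY140 (against 0.00154%). At an unadjusted p under 0.05 there were 24, 33 and 28 genes in that order of pairs, against 8.64%, 8.69% and 6.97% of all genes, and DESeq2 passed 6, 6 and 2, against 0.919%, 0.998% and 0.364%. The smallest edgeR FDR was 0.0756, for Atlantic minus KY130, in the gene with the third largest fall in Atlantic.

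The libraries of that gene lay fully apart in opposite directions in Atlantic and KY130. It had 18.5, 8.52 and 16.6 CPM in CS-Atlantic, against 50.6, 108 and 52.8 CPM in Atlantic. It had 229, 358 and 224 CPM in CS-KY130, against 132, 223 and 177 CPM in KY130 (log2FC 0.72 ± 0.30, edgeR FDR = 0.428). It had 3.32, 3.54 and 3.76 CPM in CS-KY140, against 26.1, 8.03 and 14.3 CPM in KY140 (log2FC −2.10 ± 0.63, edgeR FDR = 0.204). The CS libraries were thus all lower in Atlantic and KY140 and all higher in KY130. The difference Atlantic minus KY130 was −2.95 by edgeR and did not pass, while DESeq2 gave −2.89 with an FDR of 0.000696. In addition, 3 other genes had CS libraries fully above in 1 cultivar and fully below in another, with smaller changes. They were chosen like this one after their values were seen, and none of the 4 passed the interaction test of edgeR.

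The second comparison was between cultivars at 25°C. Between KY140 and Atlantic, 52 of 179 genes (29.1%) were higher in KY140, against 13.2% of all genes tested, and 43 (24.0%) were lower, against 22.6%. Between KY130 and Atlantic, 40 of 178 (22.5%) were higher in KY130, against 12.7%, and 30 (16.9%) were lower, against 24.6%. Between KY130 and KY140, 48 of 179 (26.8%) were higher in KY130, against 22.4%, and 47 (26.3%) were lower, against 18.4%. The 3 comparisons share their groups, so these counts are not independent of each other. Of the genes called higher, 15, 12 and 14 in that order of contrasts had a mean under 20 CPM over the 12 libraries of the other cultivars, and so met the level rule through the cultivar in which they were high. The same held for 7, 8 and 17 of the lower genes. Annotated genes under the same level rule had 27.9% higher and 18.8% lower in KY140 against Atlantic, 22.6% higher and 19.9% lower in KY130 against Atlantic, and 24.9% higher and 25.9% lower in KY130 against KY140.

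The middle of all genes was shifted in these comparisons, with a median log2FC of −0.41 for KY140 against Atlantic, −0.14 for KY130 against Atlantic and 0.27 for KY130 against KY140, and it moved with the scaling. With the size factors of DESeq2 (RLE) in place of TMM, the median of all genes for KY140 against Atlantic was −0.69, and the split of calls turned to 40 higher and 50 lower. Over all 55116 genes tested the split moved the same way, from 7284 higher and 12449 lower to 5692 and 13661. With upper quartile scaling the median for KY130 against Atlantic was 0.06, and the split was 49 higher and 24 lower. Over all 57681 genes tested that split moved likewise, from 7350 higher and 14181 lower to 9115 and 13200. Relative to the median of all genes, the 179 genes stood higher in KY140 (median log2FC 0.36, against −0.41) and in KY130 (0.09, against −0.14) when compared with Atlantic, and lower in KY130 than in KY140 (−0.15, against 0.27). Annotated genes under the same level rule had medians of 0.27 for KY140 against Atlantic, 0.21 for KY130 against Atlantic and 0.03 for KY130 against KY140, so well expressed annotated genes stood off the median of all genes on the same sides.

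The fold between the cultivar with the highest and the one with the lowest mean at 25°C had a median of 3.46 over the 179 genes, with quartiles of 2.43 and 7.39. It was under 2 for 33 genes, over 10 for 38 and over 100 for 4, the largest being 337. The cultivar with the highest mean at 25°C was KY140 for 75 genes, KY130 for 60 and Atlantic for 44, and for 135 genes the same cultivar was highest after cold. No cultivar contrast was called for 41 genes, a count that was not set against all genes. A mean under 5 CPM both after cold and at 25°C was found for 11 genes in KY140, 8 in KY130 and 2 in Atlantic, although every gene had at least 1 count in each library.

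Genes nearly absent from KY140 formed the largest of these sets. One of them, the third by mean level, had 6.82, 0.683 and 0.253 CPM in KY140, against 147, 273 and 181 CPM in Atlantic (log2FC −6.06 ± 1.13, edgeR FDR = 0.00685). In KY130 it had 895, 1012 and 710.1 CPM, which exceeded Atlantic as well (log2FC 2.04 ± 0.26, edgeR FDR = 0.000661), and its log2FC of KY130 over KY140 was 8.29 ± 1.22 (edgeR FDR = 0.00226). The highest KY140 value came from KY140-1, without which the log2FC was −8.62 against Atlantic and 10.71 for KY130 over KY140. After cold it had 167, 187 and 238 CPM in CS-Atlantic, 856, 575 and 797 CPM in CS-KY130 and 1.00, 0.200 and 0.153 CPM in CS-KY140, so the order of the cultivars was kept.

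Another gene had 2.01, 1.45 and 2.78 CPM in KY140, against 97.5, 169.9 and 175 CPM in Atlantic (log2FC −5.96 ± 0.41, edgeR FDR = 0.000378). KY130 had 216, 106 and 183 CPM of it, which overlapped with Atlantic (log2FC 0.09 ± 0.31). A further gene had 61.9, 84.5 and 52.4 CPM in KY130, against 0.241, 0.342 and 1.18 CPM in KY140 (log2FC 6.70 ± 0.70, edgeR FDR = 0.000647), and Atlantic stood between with 32.0, 39.7 and 30.2 CPM. Both genes kept their calls with any 1 library left out. The latter gene met the level rule through KY130, so the choice of genes favoured its contrast.

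Relative to Atlantic, the largest log2FC in KY130 was that of a gene with 126, 298 and 120.4 CPM in KY130, against 16.4, 23.7 and 10.6 CPM in Atlantic (log2FC 3.36 ± 0.46, edgeR FDR = 0.000915). KY140 had 5.30, 0.0854 and 2.36 CPM of it, the lowest of these being a single count. The gene met the level rule through KY130, so the choice of genes favoured this contrast. Second in this contrast was a gene with 634, 1213 and 627 CPM in KY130, against 109, 157 and 108 CPM in Atlantic (log2FC 2.65 ± 0.32, edgeR FDR = 0.000504). KY140 had 15.5, 6.32 and 10.9 CPM of it, so the 3 cultivars did not overlap. The third was a gene with 57.9, 89.8 and 43.3 CPM in KY130, against 11.7, 11.7 and 11.6 CPM in Atlantic (log2FC 2.37 ± 0.32, edgeR FDR = 0.00086).

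Other genes were nearly absent from KY130. The one with the lowest log2FC of KY130 over Atlantic had 1.98, 0.640 and 1.92 CPM in KY130, against 88.4, 100.3 and 96.6 CPM in Atlantic (log2FC −6.07 ± 0.41, edgeR FDR = 4.12e-05). In KY140 it had 83.4, 126 and 48.2 CPM, which overlapped with Atlantic. The one with the third lowest had 3.42, 1.12 and 0.167 CPM in KY130, against 29.5, 44.8 and 38.6 CPM in Atlantic (log2FC −4.68 ± 0.79, edgeR FDR = 0.00231), and the log2FC was −5.90 without KY130-1. The 2 genes had like profiles over the 18 libraries (r = 0.969). The one with the third lowest averaged 1.57 CPM in KY130 and 0.586 CPM in CS-KY130. It met the level rule through the other cultivars, Atlantic among them, so the choice of genes favoured its contrast.

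Between these 2 in log2FC of KY130 over Atlantic was a gene that had its highest levels in Atlantic, with 9.62, 20.7 and 8.43 CPM in KY130, against 670.5, 781 and 397 CPM in Atlantic (log2FC −5.64 ± 0.47, edgeR FDR = 8.97e-05). KY140 had 65.2, 40.8 and 147 CPM of it. Its neighbour in running number was ordered otherwise, with 0.180, 3.04 and 0.334 CPM in KY130, against 253, 90.2 and 251 CPM in KY140 (log2FC −7.42 ± 1.13, edgeR FDR = 0.00256), and 8.70, 20.4 and 8.93 CPM in Atlantic. Without KY130-2, the highest of its group, this log2FC was −9.70. This neighbour met the level rule through KY140, so the choice of genes favoured its contrast between KY130 and KY140. The profiles of the 2 genes correlated at 0.187 only.

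Genes highest in KY140 included some near the floor in both other cultivars. Among them, the gene with the largest log2FC of KY140 over Atlantic had 155, 77.4 and 89.0 CPM in KY140, against 0.683, 2.53 and 0.568 CPM in Atlantic (log2FC 6.59 ± 0.69, edgeR FDR = 0.000998). KY130 had 0.719, 1.12 and 0.751 CPM of it, and for KY130 over KY140 the log2FC was −7.04 ± 0.48 (edgeR FDR = 0.000221). It met the level rule through KY140 alone, so the choice of genes favoured these contrasts. Too few counts were left for a test of its cold response in Atlantic and KY130, and in KY140 it had 84.5, 90.1 and 80.1 CPM after cold (log2FC −0.24 ± 0.33).

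Second by log2FC of KY140 over Atlantic was a gene with 129, 61.6 and 42.8 CPM in KY140, against 3.33, 4.66 and 5.93 CPM in Atlantic (log2FC 4.26 ± 0.52, edgeR FDR = 0.00163). The third was a gene with 32.4, 47.0 and 47.9 CPM in KY140, against 1.71, 2.13 and 3.90 CPM in Atlantic (log2FC 4.21 ± 0.46, edgeR FDR = 0.0011). In both genes every KY140 library lay above every Atlantic library, and both calls held with any 1 library left out. Both genes met the level rule through KY140, so the choice of genes favoured these contrasts. The gene with the second highest mean level was higher in KY140 than in Atlantic (log2FC 3.26 ± 0.32, edgeR FDR = 0.000862) and lower in KY130 than in KY140 (log2FC −2.52 ± 0.28, edgeR FDR = 0.000836).

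**Figure D5:**
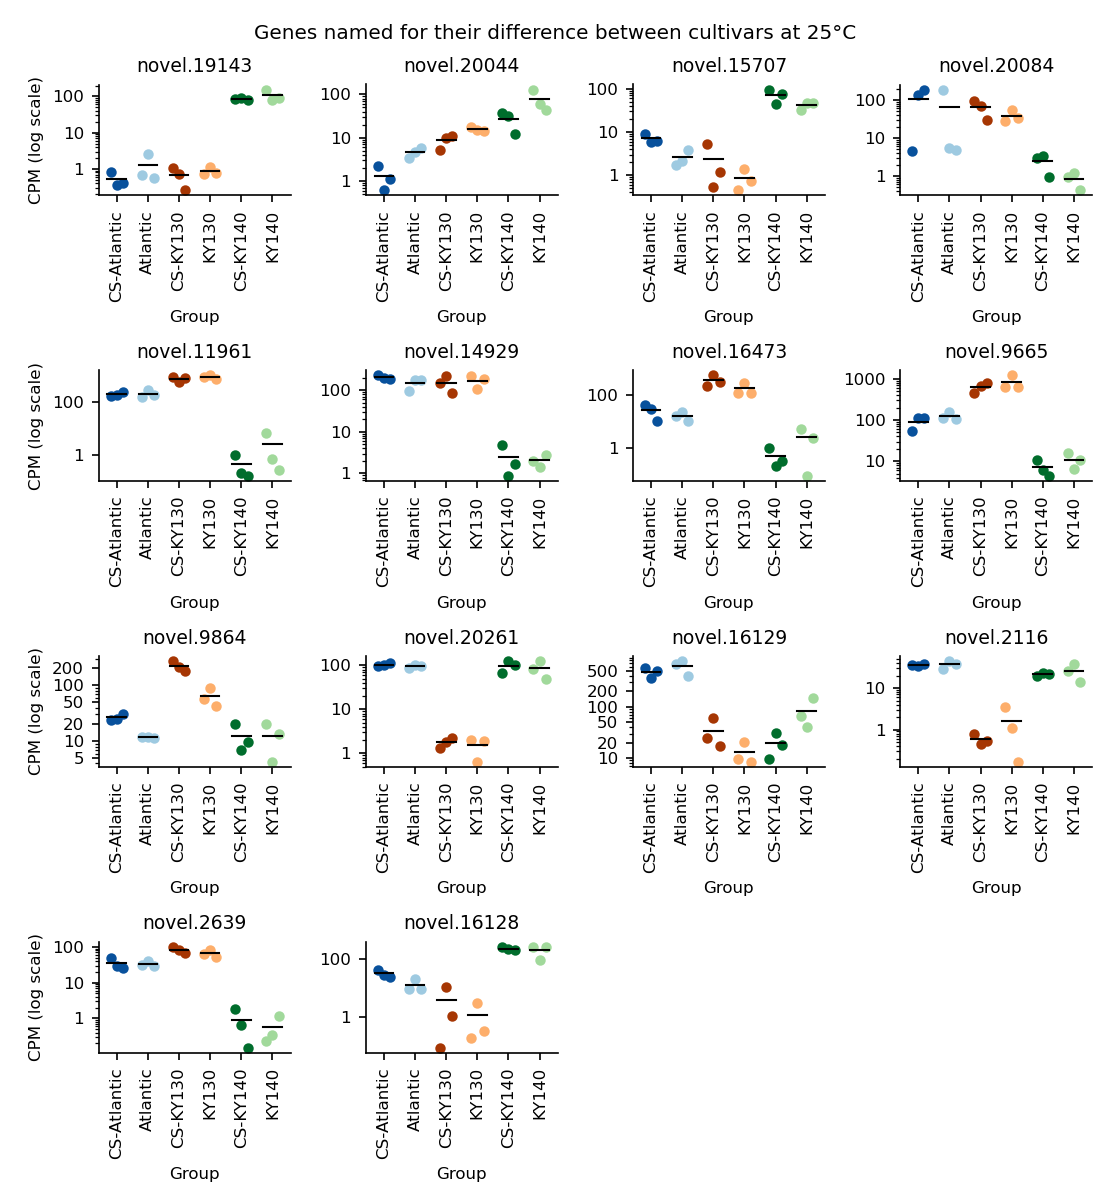
Level in CPM (log scale) of the 14 genes with the largest called log2FC between cultivars at 25°C, 1 panel for each gene under its deposited identifier, in each of the 3 libraries of a group (points) with the group mean (bar), cold-stressed groups in dark and 25°C groups in light colours. The first panel holds the gene with the largest log2FC of KY140 over Atlantic, which is low in Atlantic and KY130, and the first panel of the second row holds the gene with the third highest mean level, at 0.153 to 6.82 CPM in the KY140 and CS-KY140 libraries.

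The contrast of 1 gene rested on a single library. It had the lowest log2FC of KY140 over Atlantic, with 0.963, 1.20 and 0.422 CPM in KY140, against 188, 5.45 and 4.79 CPM in Atlantic (log2FC −6.07 ± 1.65, edgeR FDR = 0.0236). Without Atlantic-1 the log2FC was −2.54 and the call was lost, as it was without KY140-2 or KY140-3 (FDR up to 0.15). After cold it had 4.64, 133 and 184 CPM in CS-Atlantic. High and low libraries thus occurred in both Atlantic groups.

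The remaining genes of highest mean level differed less. Seventh by mean level was a gene with 525, 416 and 424 CPM in KY140, against 278, 265 and 199 CPM in Atlantic (log2FC 1.07 ± 0.22, edgeR FDR = 0.00849), and it was lower in KY130 than in Atlantic, with 122, 136 and 108 CPM (log2FC −1.10 ± 0.20, edgeR FDR = 0.00333). Ninth by mean level was a gene with 702, 373 and 379 CPM in KY140, against 118, 184 and 138 CPM in Atlantic (log2FC 1.92 ± 0.33, edgeR FDR = 0.00536). The tenth was a gene with 415, 370.4 and 405 CPM in KY130, against 149, 128 and 153 CPM in Atlantic (log2FC 1.38 ± 0.17, edgeR FDR = 0.000506). The cold contrast of these 3 genes passed in no cultivar.

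At the other end, 28 genes were called in none of the 6 tests, whereas 31 were called in both a cultivar contrast and a cold contrast. The 5 genes with the smallest variation over all 18 libraries had coefficients of variation of 28.3%, 28.8%, 29.0%, 29.6% and 31.1%. The one with the second smallest, which also had the eighth highest mean level, had 286, 260.3 and 245 CPM in CS-Atlantic, against 293, 301 and 301 CPM in Atlantic. It had 215, 82.0 and 115 CPM in CS-KY130, against 282, 309 and 264 CPM in KY130, which did not overlap (log2FC −0.93 ± 0.35, edgeR FDR = 0.352). A low variation over all libraries thus did not mean equal groups: the gene with the third smallest had 97.0, 108 and 105 CPM in CS-Atlantic, against 67.3, 80.9 and 78.5 CPM in Atlantic, and its CS libraries lay above in all 3 cultivars.

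Genes with like profiles were sought with Pearson's r of log2(CPM + 1) over the 18 libraries, which fall into 6 groups, and r is a description with no test. The median over 15931 pairs was 0.01. The highest values were 0.985, 0.977 and 0.977, for 3 pairs formed by 4 genes that were all low in KY140. The gene with the third highest mean level was 1 of the 4, and another, in 2 of the 3 pairs, had 4.17, 2.99 and 4.64 CPM in KY140, against 48.1, 66.1 and 36.2 CPM in Atlantic. Among the 13 pairs with consecutive numbers the median r was 0.504, ranging from 0.102 to 0.957. Pairs whose numbers lay 2 apart ranged from −0.795 to 0.956, the highest being the pair with the largest rise in Atlantic. Whether consecutive numbers mark neighbouring regions is not stated in the sources used here.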

How the data were processed

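Poly(A) RNA of potato leaves was sequenced in 18 libraries, 3 in each of 6 groups. The deposited table holds raw counts of reads for each gene. Which aligner, counter and genome build produced it, and how reads matching several copies were treated, is not given in the sources used here. Library preparation is described as strand-specific in the labels. Columns were matched to groups by the record names, and 0 columns of per-sample values were left unused. A second deposited table that repeats the identifiers was not used here.

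Levels are CPM by library total. Tests used edgeR 4.0.16 (limma 3.58.1, R 4.3.3): filterByExpr with a minimum count of 10, TMM, and the quasi-likelihood test in the 6 libraries of a comparison or the 12 of an interaction, fitted over all genes with Benjamini-Hochberg adjustment. The SE was taken as the absolute log2FC over the square root of the F statistic. Alternatives were DESeq2 1.42.0, RLE and upper quartile scaling, filters, 1 fit over all 18 libraries, a replicate block, and leaving out each library. The tests were checked on simulated counts. Figures used Python 3.11.15 and matplotlib 3.10.9.

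The genes and rules were chosen with earlier results of these data known. Named genes are the 10 with the highest mean CPM, up to 5 called per direction with the largest absolute log2FC in each cold comparison, those called the same way in all 3 cultivars, up to 3 per direction in each cultivar comparison, the 5 with the smallest variation over libraries, and 3 on each side of the level limit. Others are said to have been chosen after their values were seen. The text refers to genes by level or change, and the plots of single genes carry the deposited identifiers. No sequences, positions or gene names were at hand.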

Additional observations from a re-analysis of the deposited data

How the results depend on the processing

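The rule gave 179 genes, 316 with a mean of at least 10 CPM, 83 with at least 50 CPM and 334 without the requirement of a count in every library. DESeq2 called 22 genes higher and 3 lower after cold in KY130 and 8 higher and 11 lower in KY140, with 2.12%, 0.591%, 2.48% and 0.551% of all genes, and its interactions passed 6 genes for Atlantic minus KY140, 6 for Atlantic minus KY130 and 2 for KY130 minus KY140. Without a filter on low counts, KY130 had 24 higher and 4 lower and KY140 had 14 higher and 15 lower, with 1.59%, 0.326%, 2.24% and 0.5% of all genes. In the joint fit of 18 libraries Atlantic had 7 higher and 7 lower, KY130 had 2 lower, and KY140 had 8 higher and 11 lower, with 1.01%, 0.292%, 0.169%, 1.81% and 0.27% of all genes; upper quartile scaling gave 1 lower in KY130 (0.0862% of all genes) and a split of 1 higher and 4 lower in KY140 (0.782% and 0.165%). The causes of these differences were not tested. With 1 library left out, calls after cold were 20 to 24 higher and 10 to 14 lower in Atlantic, 1 to 10 higher and 0 lower in KY130, and 0 to 3 higher and 0 to 2 lower in KY140. Interactions then passed 0 to 3 genes for Atlantic minus KY140, 0 to 2 for Atlantic minus KY130 and 0 to 1 for KY130 minus KY140. Over all genes, calls after cold with 1 library left out were 1974 to 2670 higher and 638 to 779 lower in Atlantic. In KY130 they were 124 to 351 and 10 to 54, and in KY140 94 to 590 and 13 to 97. The interactions over all genes passed 0 to 791, 13 to 529 and 0 to 162 in that order of pairs. Counts between cultivars stayed within 1.5 times of those reported. Of 39 results for named genes under 546 alternatives, 495 kept direction and call, 51 kept direction and lost the call, and 0 reversed. Same-numbered libraries of 2 groups had correlations of their deviations from −0.138 to 0.191, so no strong shared deviation was seen. These values cannot show whether the samples were paired when they were taken. With the replicate block, KY140 had 4 genes higher and the other counts moved by less than 1.5 times. Totals per library are similar, but the number of detected genes ran from 45305 in KY140-1 to 74628 in CS-Atlantic-2. Genes near 1 CPM in a cultivar rest on few counts, and what limits the low values of a library was not tested.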

Other observations

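A further 155 identifiers with the tag reached the mean level of 20 CPM but had 0 counts in at least 1 library, and they are not among the 179 genes. Of these, 53 were at 0 in all 6 libraries of KY140, 20 in all 6 of KY130 and 9 in all 6 of Atlantic. For 100 of the 155, the libraries at 0 were those of KY140 only. The largest mean level among them was 897 CPM. At 21 of them a single library was at 0.

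Within the 179 genes, 4 spread at least 10-fold between the libraries of 1 group in which the highest library had at least 20 CPM. They were the gene with the lowest log2FC of KY140 over Atlantic at 25°C and 3 others. The first of the others had 12.7, 2.44 and 67.0 CPM in CS-KY130, against 71.2, 63.1 and 45.0 CPM in KY130, and 55.7, 4.81 and 4.37 CPM in CS-KY140, against 5.21, 5.21 and 75.4 CPM in KY140. The second had 72.0, 6.41 and 47.2 CPM in CS-KY140, against 3.21, 11.6 and 37.6 CPM in KY140. The third had 51.0, 18.8 and 28.1 CPM in CS-KY140, against 0.160, 5.21 and 23.4 CPM in KY140, where KY140-1 was the lowest. These genes were chosen after their values were seen.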
